A study of Drosophila melanogaster with 12 samples.

Results

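Translation initiation factors load ribosomes onto mRNA, and aminoacyl-tRNA synthetases join amino acids to their tRNAs. The genes described here are all rows of a Drosophila melanogaster ovary count table whose symbol begins with eIF or with Aats-, the older prefix of the synthetases. There are 50 such genes among 15446, 29 of them eIF and 21 Aats. RNA was sequenced in 12 libraries, 2 for each of 6 groups: a knockdown of nxf2 restricted to the germline, the wild-type stock attp2, a CRISPR mutant labelled nxf2 -/-, the wild-type stock W1118, an nxf2 -/- mutant with panx FL10B tethered, and an nxf2 +/- heterozygote with panx FL10B tethered. nxf2, or dNxf2, belongs to the nuclear RNA export factor family and acts with Panx in silencing transposons by the piRNA pathway. All flies were kept at 25°C and fed yeast, and their age is labelled 3-5 with no unit. The sources used here do not give the driver of the knockdown, the number of mutant lines, the number of flies per library or the meaning of FL10B. The 4 libraries with Panx FL10B share that agent, so none of them is a wild-type control, and the heterozygote already lacks 1 copy of nxf2. A germline knockdown leaves nxf2 in the somatic cells of the ovary. The wild-type stocks were set against the knockdown and the mutant by their names alone.

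Initiation begins when eIF2 carries the initiator tRNA to the small ribosomal subunit, with eIF1A and eIF3 already bound. The eIF4 proteins bind the capped end of the mRNA and unwind it, eIF5 triggers GTP hydrolysis by eIF2, and eIF5B joins the large subunit. eIF2B reloads eIF2 with GTP and is the step that stress kinases block. In the ovary, nurse cells make the ribosomes and mRNA that the egg receives, and control of initiation through eIF4E is known to restrict maternal mRNAs such as oskar. Synthetases exist in a cytosolic and a mitochondrial set, and some genes serve both.

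The libraries held 3811630 to 11260925 counts, which puts 3 counts at 0.275 to 0.772 CPM, the counts per 1e6 counts of the tested genes. CPM here are scaled with TMM factors, which adjust each library for its composition. nxf2 itself was measured at 19.0 and 17.2 CPM in the knockdown, against 36.1 and 49.2 CPM in attp2, and at 29.9 and 33.6 CPM in the mutant, against 69.5 and 68.8 CPM in W1118. With Panx FL10B it was at 30.2 and 30.1 CPM in the mutant, against 34.6 and 35.8 CPM in the heterozygote, a log2 difference of -0.22 that did not pass the test (edgeR adjusted p = 0.334). Replicates were unevenly alike: chi-square per degree of freedom between the 2 libraries of a group was 37.1 in attp2, 16.8 in the knockdown, 11.5 in the mutant, 2.01 in the mutant with Panx FL10B, 2.42 in its heterozygote, and 1.55 in W1118. All 7 germline markers had counts in every group. No label says that libraries came from separate flies, so the p-values reflect the spread of these libraries alone, which may be technical.

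Of the 50 genes, 45 passed the filter on low counts. The 5 that did not are eIF4E-3, eIF4E-4, eIF4E-5, eIF4E-6 and eIF4E-7, relatives of the cap-binding protein eIF4E. Their summed counts over 12 libraries were 6, 0, 34, 6 and 13, and no library held more than 7 counts of any of them. eIF4E-5 had 0.783 and 0.909 CPM in the nxf2 mutant, against 0.257 and 0.306 CPM in W1118, and 0.0928 to 0.442 CPM in the other groups. Apart from the 7 counts of eIF4E-5 in each library of the nxf2 mutant without Panx FL10B, no count of these genes exceeded 3. No fold is given for the 5 genes, since they did not pass the filter.

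Levels differed far more between genes than between genotypes. Per kilobase of exon, eIF-5A stood highest at 1362 CPM per kb over the 12 libraries, followed by the helicase eIF-4a at 713, eIF-4E at 430 and eIF-4B at 324. eIF-5A is a hypusine-bearing factor now named eEF5 because it also aids elongation. The 5 eIF3 subunits lay close together, at 198 to 258 CPM per kb, whereas the eIF2B subunits ranged from 19.0 to 63.6. Synthetases of the 15 genes outside the mitochondrial group ranged from 27.8 for Aats-arg to 102 for Aats-lys. The 6 whose current RefSeq symbol ends in -m, for mitochondrial, ranged from 2.81 for Aats-met to 18.7 for Aats-phe, below every other synthetase. The eIF4E relatives reached at most 0.366 CPM per kb. Exon lengths are those of the BDGP6 annotation, a later build than the dm3 genome used by the authors, so these levels are approximate.

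**Figure D1:**
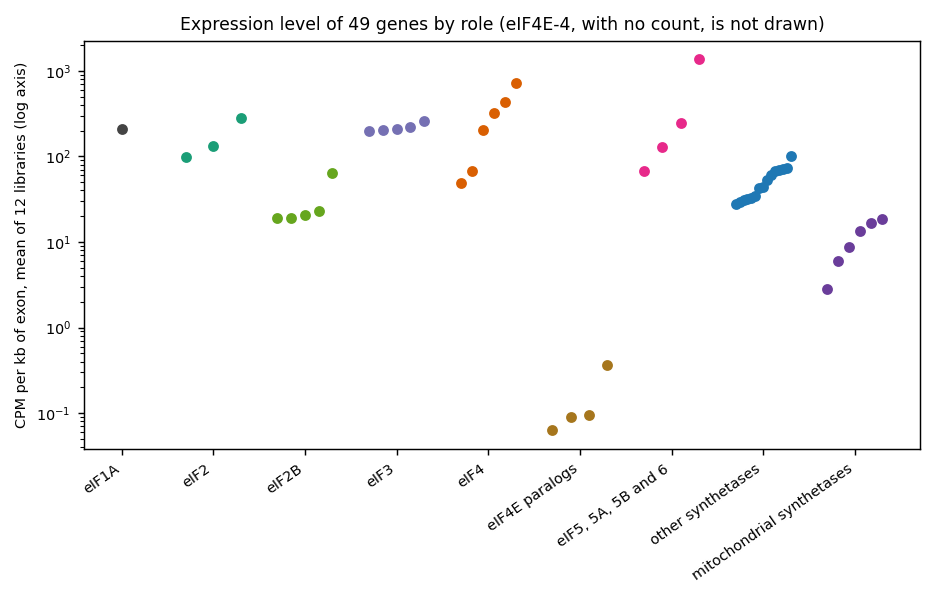
Mean level over 12 libraries of 49 genes in CPM per kb of exon on a log axis, 1 point a gene, grouped by role. eIF-5A is highest at 1362 CPM per kb, and the eIF4E relatives lie at or under 0.366.

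The nxf2 mutant was next set against the heterozygote, both with Panx FL10B. In the mutant, 10 of the 45 genes rose, which is 22.2% of them: eIF4G, eIF6, eIF5, eIF5B, eIF3-S10, eIF2B-epsilon, Aats-asn, Aats-ile, eIF3-S9 and Aats-gly. Over all 8638 genes tested, 19.5% changed, 9.27% higher and 10.2% lower. No initiation factor or synthetase fell at an edgeR adjusted p under 0.05, nor at an unadjusted p under 0.05, where 19 were higher and 0 lower. The share of all genes at an unadjusted p was not computed, for this or any other comparison. DESeq2 called 12 higher and 0 lower, beside 16% of all genes, 704 higher and 675 lower. The median log2 change of the 45 genes was 0.19, beside -0.01 over all genes, and 35 of the 45 lay above 0, beside 48.4% of all genes. The 50 genes took 1.76% and 1.77% of all counts in the mutant libraries, against 1.49% and 1.51% in the heterozygote libraries (95% Wilson intervals within 0.0117 percentage points, counting error only).

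eIF4G, the scaffold that holds cap-binding eIF4E, the helicase eIF4A and poly(A)-binding protein together, had the largest change of the 45. It was at 1694 and 1655 CPM in the mutant with Panx FL10B, against 1080 and 1043 CPM in the heterozygote. Both mutant libraries stood well above both heterozygote libraries, by a log2 fold change of 0.66 ± 0.11 (SE, 2 libraries each, edgeR adjusted p = 0.000662). The other 5 genes of the eIF4 group did not pass the test in all libraries, with log2 changes between -0.15 for eIF4G2 and 0.42 for eIF-4B. eIF-4B passed in DESeq2 (DESeq2 adjusted p = 0.0339). In the fit of these 4 libraries alone eIF-4B, eIF-4a and eIF-4E passed, all higher, and eIF4G2 passed, lower.

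All 4 genes grouped by symbol as eIF5 and eIF6, namely eIF5, eIF-5A, eIF5B and eIF6, lay above 0, and 3 of them rose. eIF5B, the GTPase that joins the ribosomal subunits, was at 697 and 711 CPM in the mutant, against 523 and 536 CPM in the heterozygote. eIF6, which keeps free large subunits from joining too early, was at 101 and 113 CPM in the mutant, against 72.7 and 78.5 CPM in the heterozygote. The groups did not overlap for either gene, with log2 changes of 0.41 ± 0.10 for eIF5B (edgeR adjusted p = 0.00945) and 0.50 ± 0.12 for eIF6 (edgeR adjusted p = 0.0114). eIF5, the activator of eIF2's GTPase, was at 892 and 873 CPM in the mutant, against 655 and 644 CPM in the heterozygote. Its log2 change was 0.44 ± 0.12 (edgeR adjusted p = 0.0174). In BDGP6, 80.8% of its exon length is shared with CG46312 on the same strand, so its counts may be split between the 2 genes.

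Of the 5 eIF3 subunits, the scaffold subunits eIF3-S10 (eIF3a) and eIF3-S9 (eIF3b) rose and all 5 lay above 0. eIF3-S10 was at 841 and 858 CPM in the mutant, against 648 and 650 CPM in the heterozygote, and eIF3-S9 at 925 and 951 CPM, against 736 and 737 CPM. Their log2 changes were 0.39 ± 0.08 (edgeR adjusted p = 0.0051) and 0.35 ± 0.09 (edgeR adjusted p = 0.015). The remaining subunits, eIF3-S8, eIF-3p66 and eIF-3p40, had log2 changes of 0.16, 0.24 and 0.01. eIF2B-epsilon, the catalytic subunit of eIF2B, rose by a log2 change of 0.38 ± 0.11 (edgeR adjusted p = 0.0235), a call not made by DESeq2, while the 4 other eIF2B subunits ranged from -0.24 to 0.10. The 3 eIF2 subunits had log2 changes of 0.19 to 0.24 and eIF-1A 0.06, none past the main test. With upper-quartile scaling and with the filter at 5 CPM, eIF-2alpha and eIF-3p66 passed, and eIF-3p66 also with RLE scaling and in DESeq2. The 3 eIF2 subunits, eIF-3p66 and eIF3-S8 passed higher in the fit of these 4 libraries alone, and eIF2B-delta lower.

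Among the synthetases, all 15 outside the mitochondrial group had a log2 change above 0, with a median of 0.22, and 3 rose: Aats-asn by 0.37 ± 0.11, Aats-ile by 0.37 ± 0.10 and Aats-gly by 0.31 ± 0.09 (edgeR adjusted p = 0.0345, 0.0237 and 0.032). Aats-gly no longer passed without the filter or with unscaled totals. Of the 6 mitochondrial synthetases, 1 lay above 0, Aats-ala-m at 0.19, and the median was -0.06. No test of the difference between the 2 groups was made.

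**Figure D2:**
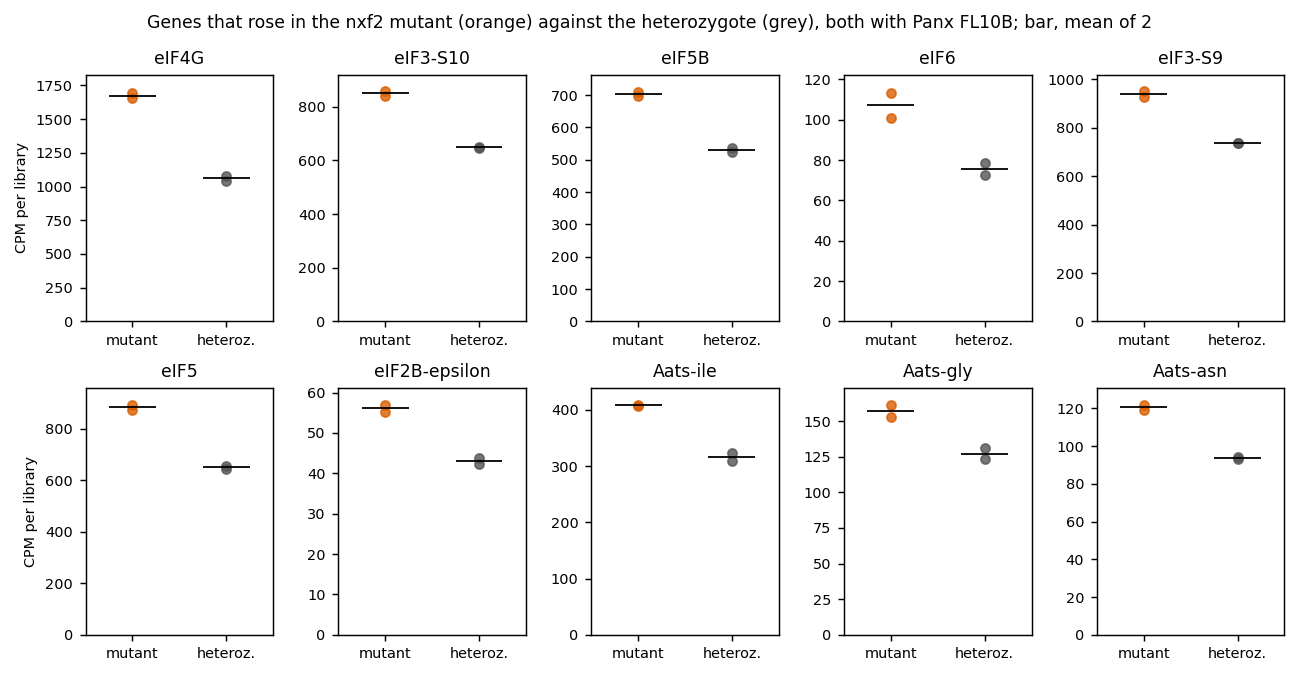
CPM per library of the 10 genes that rose in the nxf2 mutant (orange, left) against the heterozygote (grey, right), both with Panx FL10B; each panel starts at 0 and bars mark the mean of 2 libraries. Both mutant libraries lie above both heterozygote libraries in every panel, with eIF4G at 1694 and 1655 CPM in the mutant, against 1080 and 1043 CPM in the heterozygote.

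Other genes of the translation pathway were taken from written lists. Of 9 further initiation genes tested, with a median log2 change of 0.12, 4 rose in the mutant with Panx FL10B: the helicase bel at 0.49, poly(A)-binding pAbp at 0.50, the eIF3 subunit Adam at 0.44 and the cap-binding repressor 4EHP at 0.36 on the log2 scale. Among 10 elongation and release genes, with a median of 0.29, 3 rose, namely the release factor Elf (0.45), Ef1alpha48D (0.36) and Ef1gamma (0.33), the last not with unscaled totals. Among 9 genes of the TOR pathway and Myc, with a median of 0.02 that turned below 0 with unscaled totals, the Myc gene dm rose by 0.87 ± 0.11, its antagonist Mnt by 0.73 and S6k, a kinase downstream of TOR, by 0.35. The eIF4E kinase Lk6 was the only 1 of 3 eIF4E binding and kinase genes to pass, at 0.49. Xrp1, a transcription factor grouped here with the eIF2alpha kinases, was at 362 and 376 CPM in the mutant, against 140 and 120 CPM in the heterozygote. This change of 1.51 ± 0.11 was the largest of the pathway genes (edgeR adjusted p = 3.26e-07), while the kinases PEK and Gcn2 and the ATF4 gene crc changed by -0.16, -0.02 and 0.23 and did not pass.

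Markers of cell types moved with the same contrast. The 6 follicle cell markers summed to 913 to 915 CPM in the mutant with Panx FL10B, against 11569 to 11638 CPM in the heterozygote. Most of the heterozygote sum came from Cp38, so the sums do not stand for follicle cells as a whole. The eggshell gene Cp38 was at 98.4 and 97.0 CPM, against 8656 and 8730 CPM, and no follicle marker was at 0. Cp38, Cp36, Vm26Aa and Fas3 were called lower. By contrast, tj was at 203 and 210 CPM in the mutant, against 167 and 166 CPM in the heterozygote. It was not called, and neither was slbo, which also lay higher in the mutant, near the floor. Germline markers summed to 4226 to 4261 CPM in the mutant, against 3201 to 3353 CPM in the heterozygote. Of these 7 markers osk, orb and aub rose, while nos fell to a mean of 235 CPM in the mutant, against 382 CPM in the heterozygote, and the median log2 change was 0.12. The 6 muscle markers summed to 361 to 376 CPM, against 195 to 200 CPM. Hemocyte markers summed to 565 to 573 CPM, against 438 to 456 CPM, most of it from vkg and Cg25C. Only Hml was called among them, higher in the mutant. Testis markers summed to 30.1 to 32.7 CPM, against 23.1 to 25.9 CPM, most of it from bol, and none was called. Fat body markers summed to 11.79 to 11.95 CPM, against 8.89 to 9.86 CPM, with Fbp1 and Lsp1alpha higher and Tsf1 lower in the mutant. Fewer cells of a type, less RNA per cell and other causes cannot be told apart in whole ovaries. The part of these markers in the rise of the 10 genes was not tested. Without mutant replicate 1 the count of 10 fell to 3, and without mutant replicate 2, heterozygote replicate 1 or heterozygote replicate 2 to 1 each. These 4 fits called 8.09% to 9% of all genes. A fit of these 4 libraries alone called 26 higher and 2 lower, beside 46.3% of all genes, against 19.5% in all libraries. eIF4G passed in each of these fits, at log2 changes of 0.62 to 0.70. With 1 library left out, eIF6 and eIF3-S10 passed in 1 of 4 fits each, and the other 7 genes in 0 of 4.

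The CRISPR mutant without Panx FL10B was set against W1118. Here 6 of the 45 genes changed, or 13.3%, beside 26.8% of all genes, 15% higher and 11.8% lower. eIF6, eIF-5A, Aats-cys and Aats-gly rose, and eIF4G2 and Aats-glupro fell. The median of the 45 genes was 0.09, beside 0.04 over all genes, and 33 lay above 0, beside 53.6% of all genes.

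eIF-5A was at 1527 and 1480 CPM in the mutant, against 965 and 998 CPM in W1118. eIF6 was at 73.3 and 65.6 CPM in the mutant, against 44.5 and 43.2 CPM in W1118. Both genes were higher in each mutant library, by log2 changes of 0.62 ± 0.12 for eIF-5A (edgeR adjusted p = 0.00252) and 0.67 ± 0.13 for eIF6 (edgeR adjusted p = 0.0027). Of the other genes of this eIF5 and eIF6 group, eIF5 changed by 0.06 and eIF5B by -0.17, neither past the test.

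Aats-cys, the cysteine synthetase, was at 92.8 and 77.3 CPM in the mutant, against 61.5 and 63.7 CPM in W1118. Aats-gly, the glycine synthetase, was at 113 and 111 CPM, against 88.5 and 91.9 CPM. Their log2 changes of 0.44 ± 0.13 and 0.31 ± 0.09 passed the test (edgeR adjusted p = 0.0238 and 0.0271) with no overlap of the groups. Aats-glupro, which encodes glutamate and proline synthetases fused in 1 protein, was at 293 and 315 CPM in the mutant, against 385 and 367 CPM in W1118, a log2 change of -0.31 ± 0.10 (edgeR adjusted p = 0.0393). BDGP6 places an antisense RNA gene over 16.6% of its exon length, and whether reads were counted by strand is not given.

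eIF4G2, an eIF4G relative known in Drosophila for its role in male meiosis, was at 370 and 374 CPM in the mutant, against 534 and 534 CPM in W1118. It fell by 0.52 ± 0.12 on the log2 scale (edgeR adjusted p = 0.00823). eIF4G, by contrast, was at 1721 and 1406 CPM in the mutant, against 1500 and 1638 CPM in W1118, overlapping groups with a log2 change of -0.01. None of the eIF2, eIF2B and eIF3 genes among the 45 passed in all libraries, by edgeR or DESeq2, with 4 of them higher and 0 lower at an unadjusted edgeR p under 0.05. eIF-2alpha passed in edgeR with upper-quartile scaling, with the filter at 5 CPM and in the fit of these 4 libraries alone (adjusted p = 0.0456, 0.0483 and 0.0294), and eIF-3p40 in the last of these (edgeR adjusted p = 0.0338) and without mutant replicate 2 (edgeR adjusted p = 0.0358). The 5 eIF2B subunits lay between 0.00 and 0.38 and the 3 eIF2 subunits between 0.10 and 0.24, all above 0. The mitochondrial Aats-ser, at 0.53 ± 0.23, did not pass either (edgeR adjusted p = 0.102).

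In the listed genes, the eIF3 subunits Trip1 (0.91) and Int6 (0.41) rose and NAT1, another eIF4G relative, fell by 0.55 on the log2 scale, of 9 tested with a median log2 change of -0.05. The elongation gene Ef1beta rose (0.45) and the ribosome rescue gene pelo fell by 0.36, of 10 tested with a median of 0.06. Thor, the inhibitor that binds eIF4E, rose by 0.64, Xrp1 by 0.62 and the mitochondrial elongation factor EfTuM by 0.40. The eIF2alpha kinases PEK and Gcn2 fell by 0.45 and 0.37, the last not in DESeq2 or with upper-quartile scaling. In the TOR and Myc list, with a median of -0.34, 4 of 9 fell, which were Mnt, Tsc1, gig and Tor, at log2 changes of -0.42, -0.35, -0.39 and -0.44.

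The follicle markers summed to 6367 to 8907 CPM in the mutant, against 4429 to 4648 CPM in W1118. Of these 6 markers Cp38 and Cp36 were called, both higher. Neither tj nor Fas3, both above 0, passed, nor did Vm26Aa and slbo, at log2 changes of -0.18 and -0.52. Hemocyte markers summed to 436 to 572 CPM in the mutant, against 291 CPM in both W1118 libraries, with vkg and Hml called, both higher. Fat body markers summed to 4.93 to 34.0 CPM in the mutant, against 0.153 to 0.257 CPM in W1118, and 2 of 4 were called, both higher. These were Lsp2, at 30.7 and 2.08 CPM in the mutant, against 0.257 and 0.153 CPM in W1118, and Tsf1, at 3.02 and 2.86 CPM in the mutant and at 0 in both W1118 libraries. Germline markers summed to 3336 to 3408 CPM in the mutant, against 4132 to 4219 CPM in W1118, with osk the only 1 of 7 to pass, lower in the mutant. Of 4 testis markers tested, 1 was called. This was aly, at 0.112 and 0 CPM in the mutant, against 7.72 and 6.43 CPM in W1118 (edgeR adjusted p = 9.87e-05). Of 6 muscle markers Mlc2 alone was called, higher in the mutant. The part of all these markers in the results was not tested. Without mutant replicate 1, W1118 replicate 1 or W1118 replicate 2 the 6 calls fell to 2 each, beside 9.21% to 14.2% of all genes. With attp2 as control there were 13 higher and 12 lower, beside 56.1% of all genes. Aats-gly and Aats-glupro passed in 0 of 4 fits that left out a library and Aats-cys and eIF4G2 in 1 of 4 each, Aats-gly did not pass in DESeq2, and Aats-glupro did not pass without the filter. eIF-5A passed in every fit, at 0.59 to 0.86. eIF6 passed in all but that with attp2 as control, where its log2 change was 0.04.

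**Figure D3:**
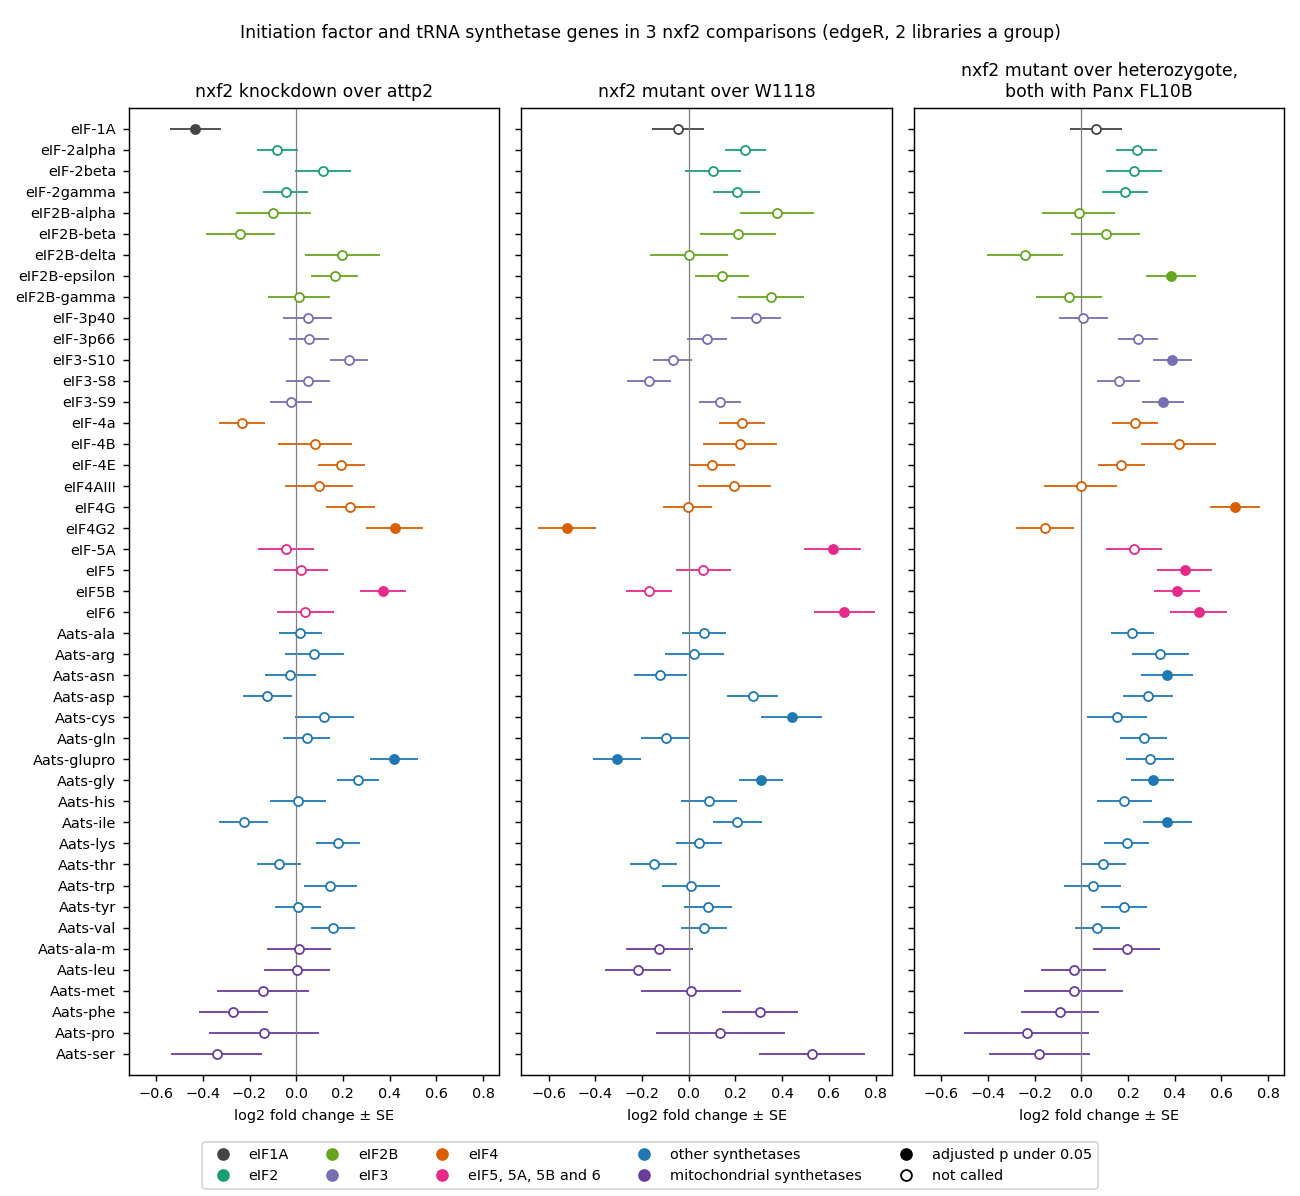
Log2 fold change ± SE of 45 genes in 3 comparisons, from left: nxf2 knockdown over attp2, nxf2 mutant over W1118, and nxf2 mutant over heterozygote with Panx FL10B; filled points have an edgeR adjusted p under 0.05 and colours mark roles. The right panel has 10 filled points, all above 0, the middle panel 4 above and 2 below, and the left panel 3 above and 1 below.

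In the germline knockdown, 4 of the 45 genes, or 8.89%, changed against attp2, beside 15.7% of all genes, 8% higher and 7.7% lower. Aats-glupro, eIF4G2 and eIF5B rose and eIF-1A fell. The median of the 45 was 0.02, beside -0.03 over all genes, and turned to -0.02 with upper-quartile scaling and -0.05 with unscaled totals.

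eIF4G2 was at 627 and 509 CPM in the knockdown, against 480 and 368 CPM in attp2, with a narrow gap between the groups and a wide spread within each. Aats-glupro was at 403 and 390 CPM in the knockdown, against 325 and 268 CPM in attp2, and eIF5B at 632 and 677 CPM, against 544 and 469 CPM. The log2 changes were 0.42 ± 0.12, 0.42 ± 0.10 and 0.37 ± 0.10 (edgeR adjusted p = 0.0354, 0.0157 and 0.0226). eIF-1A, which helps the small subunit scan for a start codon, was at 353 and 412 CPM in the knockdown, against 567 and 465 CPM in attp2, and fell by 0.43 ± 0.11 on the log2 scale (edgeR adjusted p = 0.0197).

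None of the eIF2, eIF2B and eIF3 genes among the 45 passed in all libraries, by edgeR or DESeq2, and 1 was under 0.05 by its unadjusted edgeR p, eIF3-S10 at 1130 and 1114 CPM in the knockdown, against 958 and 960 CPM in attp2 (log2 0.23 ± 0.08, edgeR adjusted p = 0.0794). eIF-4a and Aats-ile had log2 changes of -0.23 and -0.22 with groups that did not overlap, and did not pass (edgeR adjusted p = 0.125 and 0.162). The 6 mitochondrial synthetases ranged from -0.34 to 0.01. Of the listed pathway genes, the TOR partner raptor (0.43) and the Tsc2 gene gig (0.39) rose, and gig no longer passed in DESeq2, without the filter, or with upper-quartile or no scaling, and neither gene passed in the fit of the 4 libraries alone.

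Follicle markers summed to 24499 to 26050 CPM in the knockdown, against 12418 to 14318 CPM in attp2, with 4 of 6 called, all higher. The testis marker bol was at 107 and 103 CPM in the knockdown, against 54.4 and 52.0 CPM in attp2, while the other 3 tested testis markers had log2 changes of -1.02 to -1.95 and did not pass, so that the list had a median of -1.11. Fat body markers summed to 0.472 to 1.61 CPM in the knockdown, against 6.13 to 7.88 CPM in attp2, with Tsf1 called lower. The part of these markers in the results was not tested. A fit of the 4 knockdown and attp2 libraries alone called none of the 45 at an edgeR adjusted p under 0.05, with 2 higher and 0 lower at an unadjusted p under 0.05, beside 2.29% of all genes called there. Without knockdown replicate 1 none of the 4 calls was kept and Aats-ser was called instead, at -0.72 (edgeR adjusted p = 0.0456), beside 6.14% of all genes. Without attp2 replicate 1 there were 8 calls, the 4 and 4 others, beside 27.8% of all genes. Without attp2 replicate 2 there were 3, of which 1 was among the 4, beside 12.7% of all genes. eIF4G2 no longer passed with unscaled totals.

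The wild-type stocks themselves differed in most of these genes. Against attp2, 29 of the 45, or 64.4%, changed in W1118, 11 higher and 18 lower, beside 55.5% of all genes, 25.2% higher and 30.3% lower. The median of the 45 was -0.15, beside -0.07 over all genes. The split moved to 13 higher and 13 lower with unscaled totals and to 12 higher and 14 lower with RLE scaling. That of all genes moved the same way, from 2175 higher and 2616 lower to 2430 and 2370 with unscaled totals. With RLE scaling it was 2337 and 2459. Neither stock is a treatment of the other, and stock, depth and any unrecorded handling cannot be told apart.

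Among the higher genes, Aats-ile was at 296 and 286 CPM in W1118, against 196 and 172 CPM in attp2, a log2 change of 0.66 ± 0.11. eIF4G was at 1500 and 1638 CPM in W1118, against 967 and 1020 CPM in attp2, also 0.66 ± 0.11. eIF-2beta, a subunit of the eIF2 complex, was at 336 and 335 CPM in W1118, against 187 and 210 CPM in attp2, at 0.76 ± 0.12. None of these groups overlap (edgeR adjusted p = 0.000131, 0.000137 and 0.000144). Aats-leu (0.67), Aats-arg (0.55) and eIF2B-alpha (0.65) were higher as well.

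Among the lower genes, eIF2B-epsilon was at 35.5 and 30.3 CPM in W1118, against 65.2 and 65.4 CPM in attp2, 0.5001 times the attp2 level (SE of the log2 change 0.11). Aats-trp was at 80.8 and 75.2 CPM in W1118, against 145 and 185 CPM in attp2, at -1.09 ± 0.12. eIF3-S10 was at 644 and 613 CPM in W1118, against 958 and 960 CPM in attp2, at -0.61 ± 0.08. The 3 genes were lower in both W1118 libraries (edgeR adjusted p = 5.97e-06, 6.42e-06 and 3.75e-05). Aats-asp at -0.81, eIF-1A at -0.81, Aats-gly at -0.68 and the mitochondrial Aats-ser at -1.34 fell too, and BDGP6 places other genes on the opposite strand over 69.5% of the exon length of Aats-asp. Subunits of 1 complex went different ways: eIF-2alpha and eIF-2beta were higher and eIF-2gamma lower, and eIF2B-alpha was higher while eIF2B-beta, eIF2B-delta and eIF2B-epsilon were lower, with eIF-2alpha and eIF-2gamma not passing in the fit of the 4 libraries alone, and eIF2B-beta passing in 1 and eIF2B-delta in 5 of 8 other settings. Of the 16.0% of eIF-2gamma exon length that BDGP6 shares with another gene, all is shared with Su(var)3-9.

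**Figure D4:**
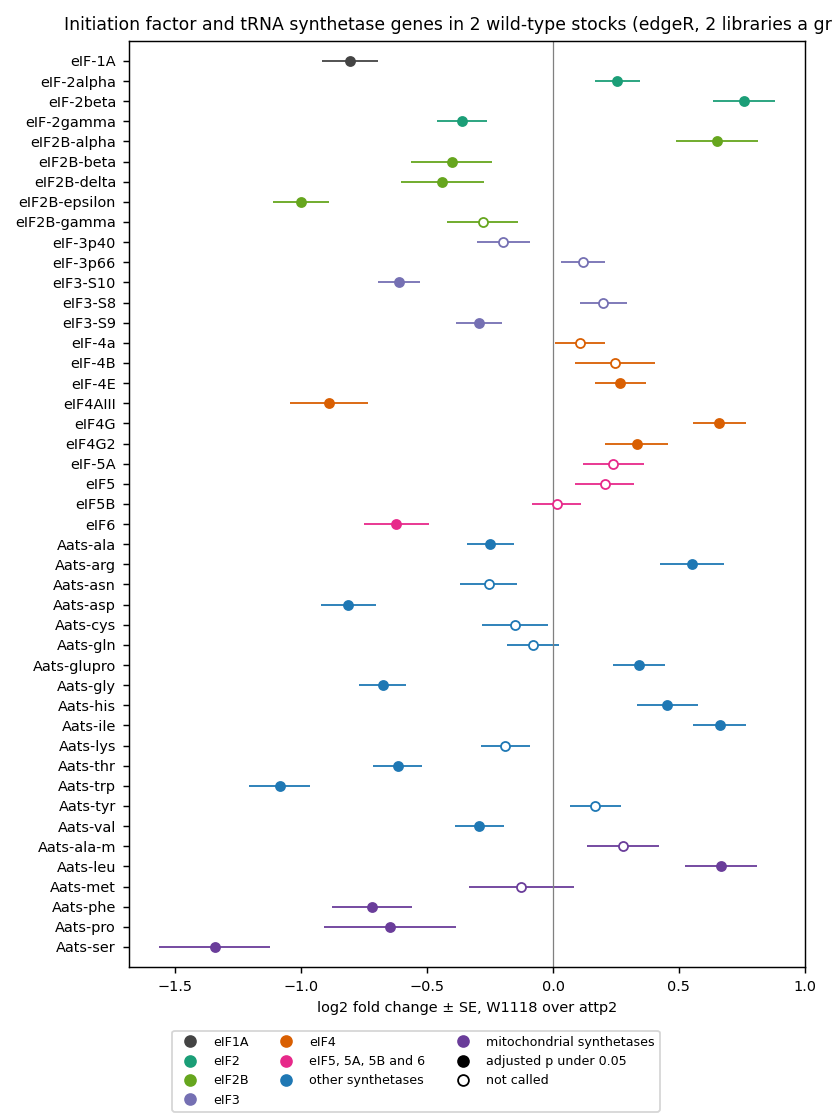
Log2 fold change ± SE of W1118 over attp2 for 45 genes; filled points have an edgeR adjusted p under 0.05 and colours mark roles. Of the filled points 11 lie above 0 and 18 below, from 0.76 for eIF-2beta to -1.34 for Aats-ser.

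Follicle markers summed to 4429 to 4648 CPM in W1118, against 12418 to 14318 CPM in attp2, with 2 of 6 called higher and 2 lower. The lower were Cp38, at a mean of 2031 CPM in W1118, against 9496 CPM in attp2, and Cp36, at 488 against 1721 CPM. The higher were tj, at 245 against 149 CPM, and Fas3, at 79.1 against 56.5 CPM. Most of the attp2 sum came from Cp38, so the sums do not stand for follicle cells as a whole. Hemocyte markers summed to 291 CPM in both W1118 libraries, against 394 to 497 CPM in attp2, with 3 of 4 called, all lower, and fat body markers to 0.153 to 0.257 CPM, against 6.13 to 7.88 CPM, with Tsf1 called lower. Of 7 germline markers 3 were higher and 3 lower, among them piwi at 279 and 294 CPM in W1118, against 1592 and 1006 CPM in attp2. The testis marker aly, 1 of 4 tested, was called higher, at 7.72 and 6.43 CPM in W1118, against 0 and 0.0916 CPM in attp2. Of 6 muscle markers sls alone was called, higher in W1118. The part of these markers in the difference between the stocks was not tested. Without W1118 replicate 2 there were 18 calls, beside 38.9% of all genes, and without W1118 replicate 1 there were 20, beside 43.6%. The mutant and W1118 comparison shares its W1118 libraries with that of the stocks, and the knockdown comparison shares its attp2 libraries.

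The effect of nxf2 loss was then compared between settings by the difference of 2 log2 changes. Between the mutant over W1118 and the knockdown over attp2, 8 genes differed, or 17.8% of the 45, beside 27% of all genes. eIF4G2 fell in the mutant and rose in the knockdown, a difference of -0.94 ± 0.18 (edgeR adjusted p = 0.0022). Aats-glupro did the same, with a difference of -0.73 ± 0.14 (edgeR adjusted p = 0.00306). For eIF5B the changes were -0.17 in the mutant, which did not pass, and 0.37 in the knockdown, a difference of -0.54 ± 0.14. eIF-5A (0.66), eIF6 (0.63), eIF-4a (0.46), Aats-ile (0.43) and Aats-ser (0.87) had the more positive change in the mutant. The Aats-ile difference did not pass in DESeq2, with RLE scaling, with the replicate block or in the fit of the 8 libraries alone, and passed in 3 of 8 fits that left out a library. In that fit of 8 libraries those of eIF5B, eIF-4a and Aats-ser did not pass either. The median difference over all genes was 0.10 on the same scale. Without either W1118 library, mutant replicate 1 or knockdown replicate 1 fewer of the 45 genes passed, and a smaller share of all genes was called.

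Between the mutant with Panx FL10B over its heterozygote and the mutant over W1118, 5 genes differed, or 11.1%, beside 21.2% of all genes. All 5 had the more positive change with Panx FL10B: eIF4G by 0.66 ± 0.15, Aats-glupro by 0.60 ± 0.14, eIF5B by 0.58 ± 0.14, Aats-asn by 0.49 ± 0.16 and eIF3-S10 by 0.46 ± 0.12 (edgeR adjusted p = 0.00646, 0.00923, 0.00903, 0.0436 and 0.0138). The Aats-asn difference passed in 1 of 8 fits that left out a library, and not in DESeq2, with the replicate block or with unscaled totals. Leaving out any library of this contrast other than replicate 2 of the mutant without Panx FL10B lowered the count, and a smaller share of all genes was called. Against the knockdown over attp2, 2 genes differed, or 4.44%, beside 10.7% of all genes. Aats-ile differed by 0.59 ± 0.15 and eIF-4a by 0.46 ± 0.14 (edgeR adjusted p = 0.0208 and 0.0495), that of eIF-4a not with the replicate block or in the fit of the 8 libraries alone. Without knockdown replicate 1 or any 1 of the 4 Panx FL10B libraries neither gene passed, and a smaller share of all genes was called. Without either attp2 library or knockdown replicate 2 more of the 45 genes passed, and a larger share of all genes was called. The settings also differ in stock, in control and in whether somatic cells lose nxf2, which cannot be told apart.

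Over the 6 groups, 25 of the 45 genes had their highest mean in the mutant with Panx FL10B and 18 their lowest in W1118. The matching shares over all tested genes were not computed, so these counts cannot be read as particular to the 45. eIF5B was at 697 and 711 CPM in the mutant with Panx FL10B and at 632 and 677 CPM in the knockdown, above the 433 to 544 CPM of the other 4 groups. eIF4G fell into a higher set, from 1406 to 1721 CPM in the mutant, W1118 and the mutant with Panx FL10B, and a lower set, from 967 to 1174 CPM in the other 3 groups. Aats-ile was at 150 to 196 CPM in the knockdown and attp2 libraries and at 286 to 409 CPM in the other 8. These orders were read from the values and were not tested beyond the contrasts above.

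**Figure D5:**
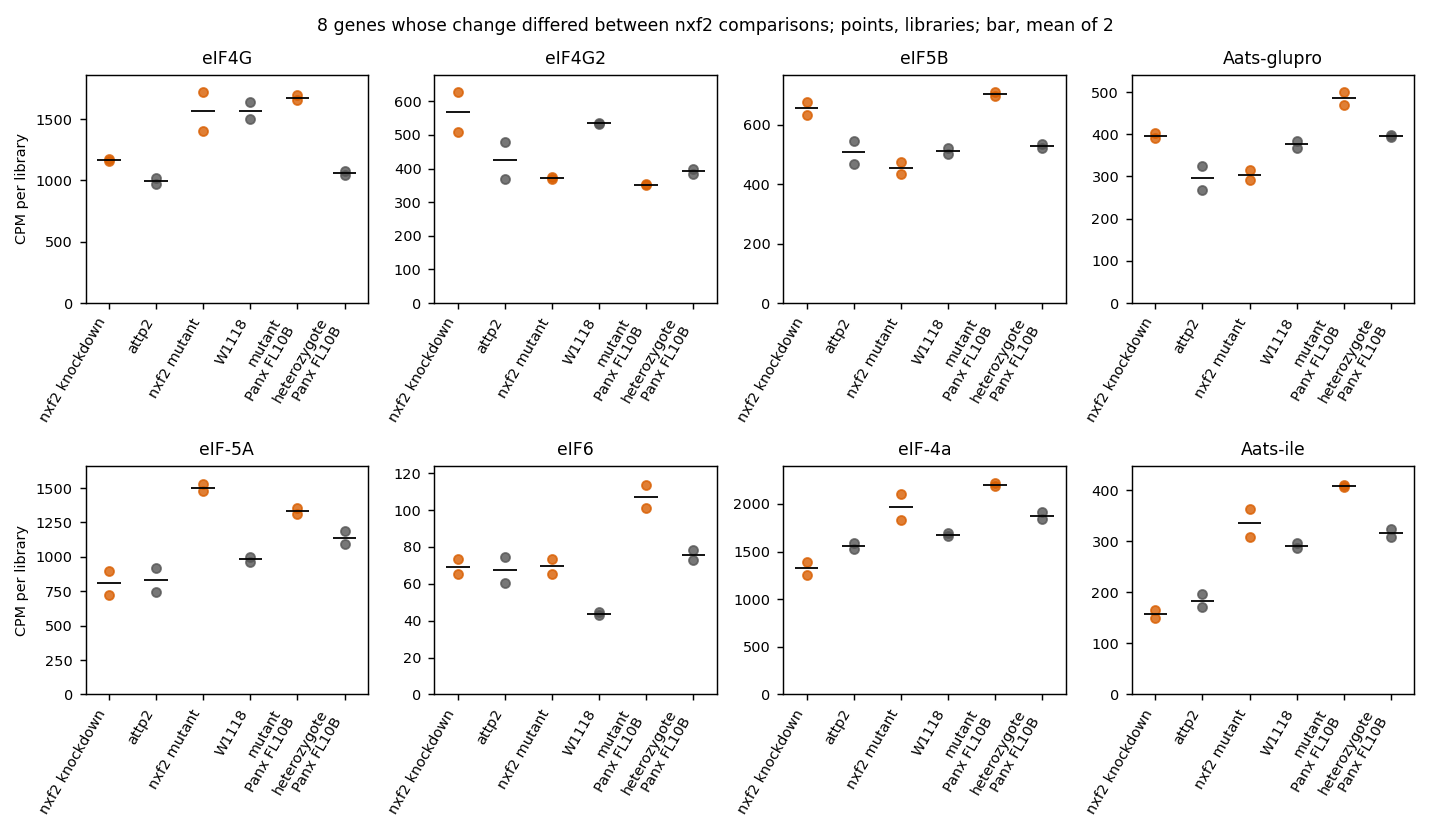
CPM per library in the 6 groups for 8 genes whose nxf2 effect differed between comparisons; orange points are knockdown or mutant libraries, grey points their controls, bars the mean of 2. eIF4G2 lies at 370 and 374 CPM in the mutant, against 534 and 534 CPM in W1118, and at 627 and 509 CPM in the knockdown, against 480 and 368 CPM in attp2.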

How the data were processed

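Total RNA of ovaries was made into libraries with not-so-random primers, per the labels' protocols. The authors deposited 1 table of read counts per gene for 12 libraries, whole numbers with no normalisation. Genome dm3, STAR 2.5.2a, cutadapt 1.16 and bcl2fastq 1.8.4 are named for all 12 libraries in the submitters' processing notes, and featureCounts 1.6.1 and deepTools 2.5.7 for the 8 without Panx FL10B. The sources used here name no counter for the other 4, and for no library the annotation or whether strand was used.

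The test was that of edgeR 4.0.16 under R 4.3.3. Genes kept by filterByExpr (8638) were scaled by TMM and fitted in 1 robust quasi-likelihood model of 6 groups (6 residual degrees of freedom, median prior 7.63, common biological coefficient of variation 0.102). Benjamini-Hochberg adjustment ran over all genes tested, and calls are at an adjusted p under 0.05. SE is the log2 change divided by the root of its F. The procedure was run on simulated counts with equal dispersion in every group. Replicates here were unevenly alike, so that run cannot check the shared spread. Alternatives were RLE, upper-quartile and no scaling, no filter, a mean of at least 5 CPM, DESeq2 1.42.0, each comparison's own libraries, a replicate block, other wild-type controls and leaving out each library, where a lone library is assumed to vary like the other groups.

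The genes and lists were chosen with earlier results of these data known. Values in every library are given for up to 6 called genes per direction with the smallest p and for the genes that differ between comparisons, and up to 3 called genes per pathway list are named; the additional pathway genes, and the orders over 6 groups, were chosen after their values were seen. Mitochondrial synthetases were grouped by current RefSeq symbol, matched for all 50 genes, after the reference was seen. The lists held 12 other initiation genes, 3 of eIF4E binding, 6 of eIF2alpha kinases and ATF4, 11 of elongation, 9 of TOR and Myc and 6 of mitochondrial translation, and those with no matching symbol were not analysed here. Coordinates are not given, since the reference is another build.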

Additional observations from a re-analysis of the deposited data

Results flagged for a closer look

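The change with nxf2 differed between settings, by a test of the difference itself, for 11 genes in 15 tests. Each value is the first log2 change minus the second. For the mutant over W1118 minus the knockdown over attp2, it was -0.94 for eIF4G2, -0.73 for Aats-glupro, -0.54 for eIF5B, 0.66 for eIF-5A, 0.63 for eIF6, 0.46 for eIF-4a, 0.43 for Aats-ile and 0.87 for Aats-ser. For the mutant over heterozygote with Panx FL10B minus the mutant over W1118, it was 0.66 for eIF4G, 0.58 for eIF5B, 0.60 for Aats-glupro, 0.46 for eIF3-S10 and 0.49 for Aats-asn. For the mutant over heterozygote with Panx FL10B minus the knockdown over attp2, it was 0.59 for Aats-ile and 0.46 for eIF-4a.

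eIF4G2 and Aats-glupro in the first of these and eIF4G in the second passed the test in all 8 other settings and in all 8 fits that left out a library, at -1.15 to -0.77, -0.87 to -0.59 and 0.53 to 0.81. Of the others, Aats-asn in the second passed in 1 of 8 such fits and in 5 of 8 other settings. Aats-ile in the first passed in 3 of 8 such fits and in 4 of 8 other settings, and Aats-ile and eIF-4a in the third in 3 of 8 such fits each. eIF3-S10 in the second passed in 3 of 8 such fits, and eIF6 and eIF-4a in the first in 4 of 8 each. eIF-5A and eIF5B in the first and Aats-glupro and eIF5B in the second passed in 7 of 8 each. Aats-ser in the first passed in 2 of 8 such fits, with 51.8 and 32.3 CPM in the knockdown, against 44.3 and 62.3 CPM in attp2.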

How the results depend on the processing

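Counts of calls depended most on which libraries entered. With each comparison's own libraries alone, calls numbered 28 for the mutant over heterozygote with Panx FL10B (10 in all libraries), 10 for the mutant over W1118 (6), 0 for the knockdown over attp2 (4), 18 for W1118 over attp2 (29), 4 for mutant minus knockdown effect (8), 12 for Panx FL10B minus mutant effect (5) and 1 for Panx FL10B minus knockdown effect (2), while 46.3%, 37.8%, 2.29%, 49.1%, 17.8%, 38.1% and 7.19% of all genes were called. Leaving out 1 library gave 1 to 3, 2 to 5, 1 to 8, 18 to 29, 3 to 11, 2 to 6 and 0 to 8 calls in the same order. With the other wild type as control the knockdown had 27 calls and the mutant 25, and with the mean of both stocks 16 and 18, beside 51.9%, 56.1%, 34% and 41.9% of all genes. A mean of at least 5 CPM gave 16 calls with Panx FL10B, beside 21.7% of all genes. For Panx FL10B minus knockdown effect, DESeq2 gave 6, the 5 CPM filter 5, and no filter and upper-quartile scaling 4 each. The shares of all genes called there were 9.42%, 12.4%, 7.12% and 11.1%, in that order. All other planned counts stayed within 1.5 times. Signs turned for Aats-glupro (0.035) and Aats-gly (-0.37) in the mutant and eIF-1A (0.38) in the knockdown with the other wild type, and for Aats-gly (-0.030) with the mean of both; the cause was not tested. The split of higher and lower calls in mutant minus knockdown effect was 5 and 3, and 9 and 3 with unscaled totals. Over all genes it was 1252 and 1079, and 1503 and 930 with unscaled totals. With the replicate block the calls were 10, 6, 4, 28, 7, 4 and 2 in the order above, the last as 1 higher and 1 lower in place of 2 higher. The matching shares of all genes were 19.2%, 26.8%, 15.2%, 55.1%, 26.9%, 21.2% and 10.4%. The libraries share only a number: deviations of same-numbered libraries correlated at 0.077 in the knockdown, -0.022 in the mutant, -0.055 in the Panx FL10B and -0.020 in the wild-type comparison. At this depth the 5 eIF4E relatives could not be tested.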
